A study of Mus musculus with 4 samples.

Results

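The genes described here were near silent in the wild-type colon epithelium and expressed in the Ezh2 knockout. They were chosen by their counts: at most 5 expected counts in both wild-type libraries, with a gene missing from a file taken as 0, and at least 20 in both knockout libraries. A gene also had to carry the same transcripts in every file that listed it and to be listed by both replicate numbers. Symbols of 15 gene families, such as Cxcl, Krt and Reg3, were then dropped. Of 18872 genes listed by at least 1 library, 50 met the thresholds, 15 of these were dropped by symbol, and 35 remained. The counts of all 4 libraries chose these genes, so their differences between genotypes are a description and carry no test.

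The libraries were made from primary epithelial cells of the mouse colon after 3 days of 2% dextran sulfate sodium (DSS), a sulfated polysaccharide used to injure the colon. There are 2 libraries of wild-type mice and 2 of mice labelled EZH2-IEC-/-, here called knockout, and both genotypes received DSS. The study's title places the loss of Ezh2 in the epithelium. The labels do not give the Cre driver, the part of the gene removed, the strain, age or number of the mice, or whether the libraries of a genotype are separate mice. The spread behind every p-value is therefore that between libraries, and it may be technical. Ezh2 itself had 105 and 102 counts in wild type against 86 and 83 in knockout (log2 fold change -0.27, adjusted p = 0.217 by edgeR's quasi-likelihood test, Benjamini-Hochberg over all genes tested). Gene-level counts cannot show whether the deleted exons are missing. The expected counts summed to between 5037367 and 5446998 per library. All 14 fixed epithelial markers were listed, with a summed level of 12300 and 12900 FPKM (fragments per kilobase of transcript, scaled to library size) in wild type and 12300 and 13000 in knockout, led by the keratins Krt8 and Krt19. The near-equal sums do not mean unchanged markers. In edgeR 7 of the 14 were higher and 4 lower in knockout, beside 23.0% and 20.8% of all tested genes.

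Ezh2 is the methyltransferase of Polycomb repressive complex 2 (PRC2), which marks a lysine of histone H3 and keeps genes of other lineages and stages silent. In mammals PRC2 is known to sit mainly at CpG islands, stretches of DNA rich in the dinucleotide CG. In an adult gut the textbook targets are developmental transcription factors and the Cdkn2a locus, while many genes of immune defence are known to be off until a cytokine or microbial signal arrives. Most members had promoters poor in CG. The windows shown here are the 250 bases before the start of transcription as RefSeq gives them for GRCm38.p6, read 5′ to 3′ on the gene's strand. The deposited tables give no positions of their own. For the transcription factor Nfil3 (chr13:52981040-52981289, minus strand) and the glycosyltransferase Gcnt4 (chr13:96924463-96924712, plus strand) the window was CpG-rich. Those of the defence gene Ltf (chr9:111019042-111019291, plus strand) and the hormone gene Ghrl (chr6:113719912-113720161, minus strand) are shown as examples of the CpG-poor majority. Gcnt4 has 2 windows in the table and Ghrl has 4, and the window with the highest CpG ratio is shown for each. Capitals mark every CG dinucleotide.
Nfil3: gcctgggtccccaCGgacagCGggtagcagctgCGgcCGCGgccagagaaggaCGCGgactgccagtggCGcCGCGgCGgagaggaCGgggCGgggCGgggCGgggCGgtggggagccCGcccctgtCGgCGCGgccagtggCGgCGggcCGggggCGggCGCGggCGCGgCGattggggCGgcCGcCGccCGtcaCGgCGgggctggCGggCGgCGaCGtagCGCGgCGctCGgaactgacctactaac
Gcnt4: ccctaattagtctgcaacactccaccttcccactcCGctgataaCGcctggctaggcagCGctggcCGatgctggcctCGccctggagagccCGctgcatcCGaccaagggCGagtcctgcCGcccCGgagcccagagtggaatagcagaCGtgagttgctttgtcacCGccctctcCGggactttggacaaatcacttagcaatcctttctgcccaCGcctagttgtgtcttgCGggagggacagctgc
Ltf: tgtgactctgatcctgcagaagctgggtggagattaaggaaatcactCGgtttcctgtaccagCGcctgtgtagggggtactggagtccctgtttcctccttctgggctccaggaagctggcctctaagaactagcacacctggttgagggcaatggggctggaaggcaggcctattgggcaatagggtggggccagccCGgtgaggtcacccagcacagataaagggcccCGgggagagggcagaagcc
Ghrl: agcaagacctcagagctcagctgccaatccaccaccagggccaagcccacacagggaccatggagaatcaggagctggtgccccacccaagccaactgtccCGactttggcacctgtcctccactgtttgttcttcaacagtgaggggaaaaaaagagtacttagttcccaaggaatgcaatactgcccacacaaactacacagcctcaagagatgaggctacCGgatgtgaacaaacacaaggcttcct

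The contrast is visible by eye, with 43 CG dinucleotides in the Nfil3 sequence, 15 in that of Gcnt4, 4 in that of Ltf and 2 in that of Ghrl. A RefSeq promoter window, from 250 bases before to 50 after the start, was matched for 24 of the 35 members. A window was called CpG-rich when it held at least 0.6 of the CG dinucleotides that its base composition predicts and at least 50% G and C. Of the 24 members, 2 had such a window (8.33%), Nfil3 and Gcnt4. The same was true of 69.0% of the 10807 tested genes with a window and of 66.9% of the genes higher in knockout. Of the 2512 genes with a window that had at most 5 counts in all 4 libraries, 24.2% were CpG-rich. With the genotypes exchanged in the thresholds, 24 genes were found, and 3 of the 19 with a window were CpG-rich (15.8%). The members' median ratio of observed to expected CG was 0.204, against 0.772 for tested genes and 0.339 for genes at most 5 counts throughout. Lin28b had a ratio of 0.708 but a GC content of 39.0%, and so was not counted as CpG-rich. These shares are descriptions of a small set with no test, and the members without a window are not covered.

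**Figure D1:**
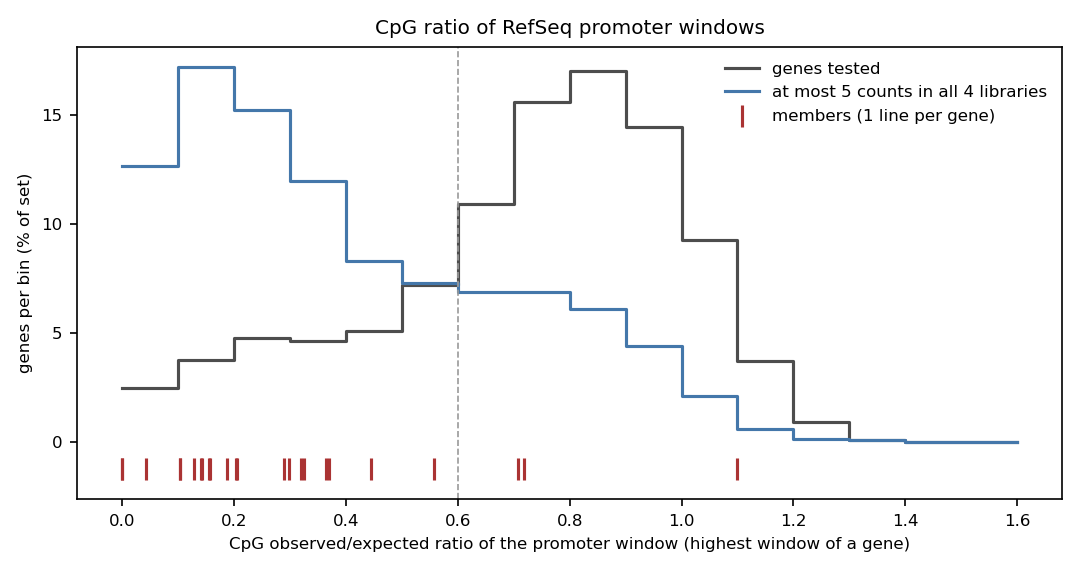
Distribution of the CpG observed/expected ratio in RefSeq promoter windows (x axis) as the percentage of genes per bin (y axis) for tested genes and for genes with at most 5 counts in all 4 libraries, with each of the 24 members as a red line below. The members' median is 0.204 and that of tested genes 0.772, and the dashed line marks the threshold of 0.6.

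A set of 7 short motifs was searched on both strands of the same windows. The core of the interferon-stimulated response element, taken as GAAA, any 2 bases and GAAA, was found in 5 of the 24 members (20.8%): Adh6a, Alpi, Calhm6, Phf11b and Saa3. It was found in 3.93% of tested genes, 5.95% of tested genes without a CpG-rich window and 3.99% of all genes in the table. The palindrome TTCNNNGAA, the letters of the gamma-activated sequence bound by STAT factors, was in 7 members (29.2%), namely Adh6a, Gcnt4, Ghrl, Gzmb, Nkg7, Pde11a and Rnf183, against 10.4% of tested genes without a CpG-rich window and 9.55% of all genes. The other 5 motifs were found as follows. TATAAA was in 3 members (12.5%, against 15.7% of all genes), CCAAT in 8 (33.3%, 41.1%) and TGACTCA in 2 (8.33%, 5.95%). GGG, any 5 bases and CC, a loose form of the NF-κB site, was in 12 of the 24 (53.5% of all genes), and CACGTG was in 1 (4.17%, 8.09%). Motifs may overlap each other, and Adh6a holds both the response element and the palindrome. A match of letters is not a bound site. The windows of Saa3 (chr7:46715677-46715926, minus strand), Phf11b (chr14:59341331-59341580, minus strand) and Calhm6 (chr10:34127973-34128222, minus strand) are shown with the response element core in capitals.
Saa3: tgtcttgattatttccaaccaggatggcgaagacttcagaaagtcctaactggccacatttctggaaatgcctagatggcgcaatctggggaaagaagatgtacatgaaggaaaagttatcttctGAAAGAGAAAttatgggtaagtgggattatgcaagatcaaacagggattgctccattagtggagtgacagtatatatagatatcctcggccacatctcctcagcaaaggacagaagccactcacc
Phf11b: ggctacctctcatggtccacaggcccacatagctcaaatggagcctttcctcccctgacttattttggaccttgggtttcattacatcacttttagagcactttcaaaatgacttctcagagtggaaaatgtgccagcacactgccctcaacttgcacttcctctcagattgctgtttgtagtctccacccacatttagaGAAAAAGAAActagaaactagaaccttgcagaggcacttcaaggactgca
Calhm6: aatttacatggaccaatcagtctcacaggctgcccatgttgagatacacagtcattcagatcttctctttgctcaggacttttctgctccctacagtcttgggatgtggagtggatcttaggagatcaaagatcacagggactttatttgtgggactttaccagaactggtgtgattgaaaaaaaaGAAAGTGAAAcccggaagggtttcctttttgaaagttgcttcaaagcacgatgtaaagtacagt

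Together the 35 members held 76.5 and 87.3 counts in wild type against 1950 and 1810 in knockout. All 35 were tested and higher in edgeR, where 23.0% of all 13608 genes were higher and 43.7% changed in either direction, but the thresholds used the same counts, so nothing is read from that number. Their median log2 fold change in that fit was 4.08, with a range of 2.71 to 8.74, against -0.0021 over all tested genes. The median of the members' mean knockout level was 3.67 FPKM, close to the 3.79 FPKM of all listed genes and below the 8.33 FPKM of tested genes, and 26 members lay under 5 FPKM. Only 7 members reached 10 FPKM: Saa3, Pla2g2a, Ghrl, Ltf, Gzmb, Gm4951 and Nkg7. The 4 members with the most counts held 39.3% of all the members' knockout counts. A gene called near silent here lay at or below 0.993 CPM (counts scaled to library size), the value of 5 counts in wild-type replicate 1, and differences among levels below that were not detectable at this depth. These are bulk libraries, in which more cells of a type and more RNA per cell cannot be told apart.

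**Figure D2:**
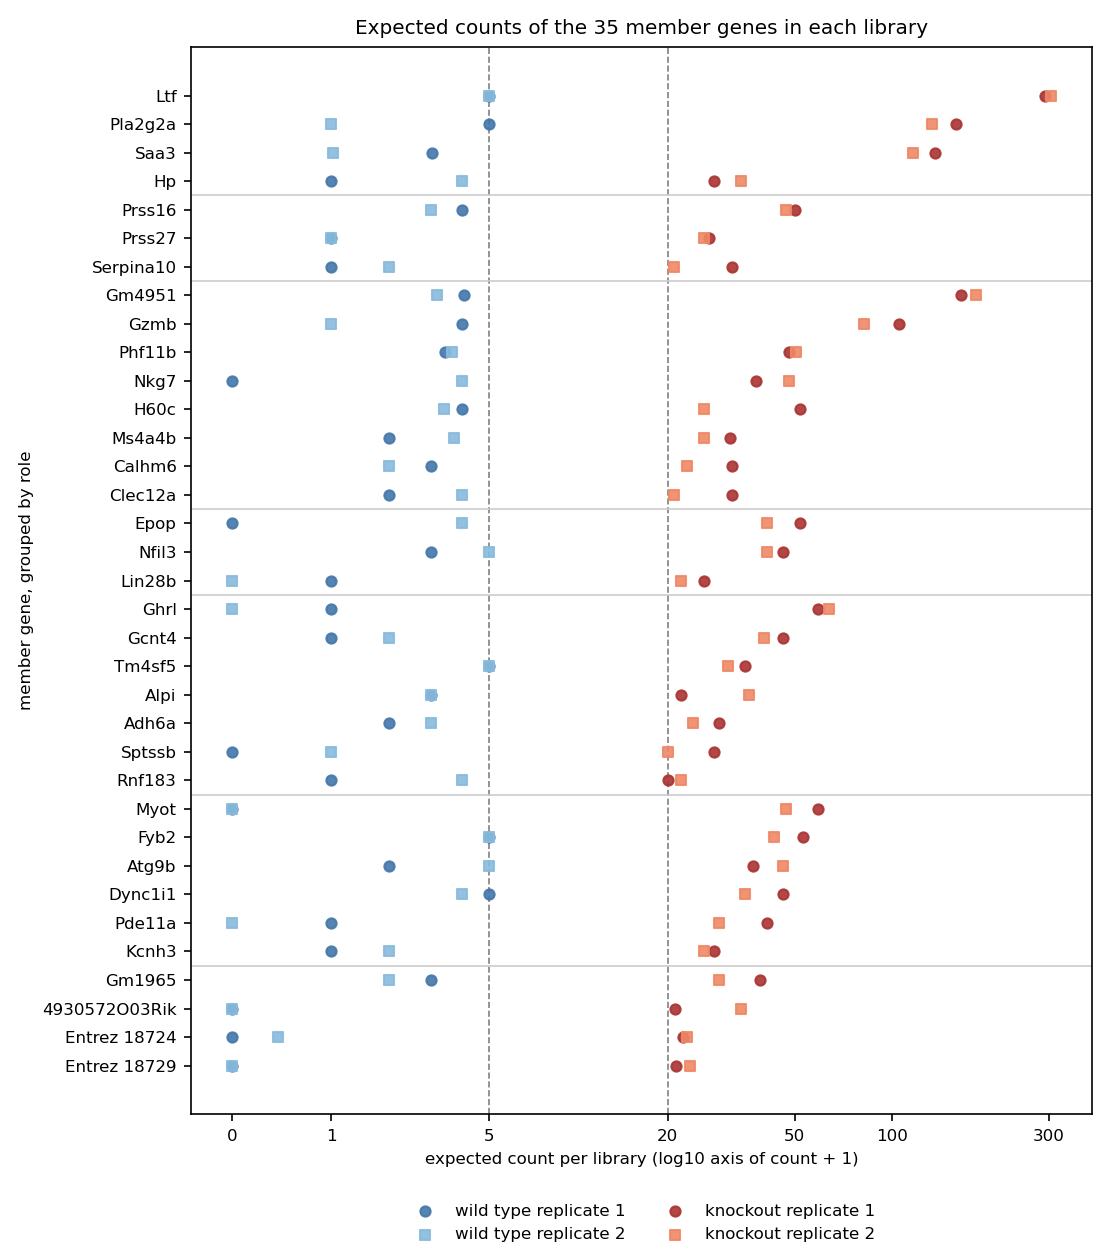
Expected counts (x axis, log10 of count + 1) of the 35 members (y axis, grouped by role) in each of the 4 libraries, with dashed lines at the thresholds of 5 and 20 counts. The gap between the thresholds is empty by construction, Ltf has the highest knockout counts, at 292 and 305, and Myot, 4930572O03Rik and Entrez 18729 sit at 0 in both wild-type libraries.

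Genes of secreted defence and the acute phase response made up 4 members, with mean knockout levels from 4.22 FPKM for Hp to 45.8 FPKM for Saa3. Saa3, a serum amyloid A protein made locally in inflamed tissue, had 1.2 and 0.39 FPKM in wild type and 49.45 and 42.06 FPKM in knockout. Its counts were 3.05 and 1.02 against 134.7 and 115.61, a 63.7-fold ratio of the summed counts relative to effective library size (95% exact Clopper-Pearson interval 24.6 to 236). Such intervals cover counting error only. Ltf, the iron-binding antimicrobial lactotransferrin, had 5 counts in each wild-type library and 292 and 305 in knockout (ratio 60.6, interval 32.7 to 127). Both of its knockout libraries lay close together, at 19.61 and 20.3 FPKM. Pla2g2a, the group IIA secreted phospholipase A2 that kills Gram-positive bacteria, had 5 and 1 counts against 157 and 132, or 1.29 and 0.24 against 37.15 and 30.96 FPKM. RefSeq lists Pla2g2a as a transcribed pseudogene in this C57BL/6J assembly, so these reads show its transcript and not a protein. Hp, the haemoglobin-binding protein haptoglobin, was lower, at 1 and 4 counts in wild type and 28 and 34 in knockout.

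Another 3 members act in the control of proteolysis, and they were all under 5 FPKM in knockout. Serpina10, the inhibitor that works with protein Z, had 1 and 2 counts in wild type against 32 and 21 in knockout. Prss27, a serine protease of surface epithelia, had 1 count in both wild-type libraries and 27 and 26 in knockout (ratio 26.9, interval 7.09 to 228). Prss16, known as the thymus-specific serine protease, had 4 and 3 counts against 50 and 47. The 3 genes together held 6 counts in each wild-type library and 109 and 94 in the knockout libraries.

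Genes of leukocytes and of immune recognition made up 8 members. Gzmb encodes granzyme B, the killing protease of cytotoxic lymphocytes, and had 0.56 and 0.14 FPKM in wild type and 13.79 and 10.67 FPKM in knockout. Nkg7, a membrane protein of cytotoxic granules, had 0 and 4 counts in wild type against 38 and 48 in knockout (ratio 21.8, interval 8.23 to 82.0). Ms4a4b, a membrane protein of T cells, had 2 and 3.7 counts against 31.44 and 26.03. In all 3 genes both knockout libraries lay above both wild-type libraries, as the thresholds require. Clec12a, an inhibitory lectin receptor of myeloid cells, had 2 and 4 counts in wild type against 32 and 21 in knockout. H60c, a stress ligand for the receptor NKG2D of killer lymphocytes, had 4 and 3.4 counts against 52 and 25.98. H60c was the member whose knockout libraries differed most, and the only one for which the interval of their ratio (2.02, 1.24 to 3.37) left out equality.

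The other immune members were Gm4951, Phf11b and Calhm6. Gm4951 carries the RefSeq synonym Ifgga2 and belongs to the interferon-inducible GTPases. It had 4.04 and 3.18 counts in wild type against 161.57 and 179.95 in knockout, or 0.3 and 0.23 against 11.24 and 12.41 FPKM (ratio 49.6, interval 23.8 to 124). Phf11b, a gene of the PHD finger family, had 3.41 and 3.64 counts against 47.84 and 50.62. Calhm6, of the calcium homeostasis modulator channel family, had 3 and 2 counts against 32 and 23. Counts of Gm4951, Phf11b, Gzmb, Ms4a4b, H60c, Saa3, 4930572O03Rik and both unnamed genes were not all whole, so reads could be shared with near copies and these 9 values are uncertain.

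Most, but not all, tested markers of lymphocytes were higher in knockout along with these genes. Of 21 fixed T and NK cell markers 20 were listed, and Trac was not. The summed level of the listed markers was 23.7 and 25.3 FPKM in wild type and 105 and 102 in knockout, or 23.2 and 24.2 against 82.1 and 79.8 without the members Gzmb and Nkg7. Of the 12 tested markers that are not members, 9 rose and 0 fell in edgeR, beside a background of 23.0% higher and 20.8% lower. Their median log2 fold change was 1.69. Cd2, Cd5 and Cd7 were not called (0.55, 1.02 and 0.29, adjusted p = 0.218, 0.0575 and 0.697). Cd3e, a chain of the T cell receptor complex, had 1.53 and 1.21 FPKM in wild type and 5.06 and 4.12 in knockout (log2 fold change 1.84, adjusted p = 0.00288). Cd8a, the co-receptor of cytotoxic T cells, had 0.95 and 0.61 against 5.34 and 5.36 FPKM (2.88, adjusted p = 6.16e-05). The marker with the highest level in both knockout libraries was Gzma, another granzyme, with 0.69 and 1.78 against 19.86 and 13.48 FPKM, and it missed the thresholds with 8 counts in wild-type replicate 2. Gzma was tested only through its knockout counts, so it could not have come out as a fall. Cd3e, Cd3g, Cd8b1 and Zap70, which rose, were too low in a wild-type library to be tested without a knockout library. The same holds for Cd5 and Cd7. The NK cell receptors Ncr1 and Klrb1c had between 0 and 2 counts in every library. Of other markers too low to be tested, Prf1 had 2 and 3.06 counts in wild type against 3.02 and 4 in knockout. Ifng had 0 and 1 against 14 and 8. The part of these cells in the levels of Gzmb, Nkg7 and Ms4a4b was not tested.

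Ltf is also a granule protein of neutrophils, and the neutrophil markers beside it were mixed. S100a8 and S100a9, the calprotectin subunits abundant in neutrophils and also made by inflamed epithelium, met the thresholds but were dropped by symbol. S100a8 had 1.64 and 2.63 FPKM in wild type and 98.01 and 89.55 in knockout, and S100a9 had 0.78 and 1.13 against 51.53 and 32.35 FPKM. Of 16 fixed neutrophil markers 12 were listed. Of the 6 tested, 4 rose and 0 fell, beside 23.0% higher and 20.8% lower among all tested genes. The 4 were Cd177, Csf3r, Fpr2 and the member Ltf, whose rise was set by the thresholds. Csf3r, the receptor for granulocyte colony-stimulating factor, rose by 1.47 on the log2 scale (adjusted p = 0.00514). Fpr2, a formyl peptide receptor, had 1 and 2 counts in wild type against 12 and 13 in knockout (log2 fold change 2.98). It was tested only through its knockout counts, so it could not have come out as a fall. Cd177, a surface protein of neutrophils, had 33.84 and 31.64 FPKM in wild type and 306.44 and 265.98 in knockout (3.23, adjusted p = 8.24e-08). The chemokine receptor Cxcr2 was not called (0.39, adjusted p = 0.339). The granule genes Mpo, Elane, Ngp and Mmp8 were listed in no library, Camp had at most 1 count, and Retnlg had 0 counts in wild type and 3 in each knockout library. Ly6g, listed only by the replicate 2 files, had 240.64 FPKM in wild type and 206.33 in knockout. Without Ly6g and Ltf the list summed to 39.1 and 39.6 FPKM in wild type and 318 and 281 in knockout, and without Cd177 as well to 5.28 and 7.98 against 11.9 and 14.8. The part of neutrophils in the level of Ltf was not tested. Of 18 tested macrophage and dendritic cell markers 11 rose and 0 fell, beside the same shares of all tested genes. The 11 include Clec4e, with 3 counts in each wild-type library against 12 and 19, tested only through its knockout counts. Csf1r, Cx3cr1, Mrc1 and Cd163 were among those not called. The macrophage and dendritic cell list summed to 348 and 373 FPKM in wild type and 473 and 552 in knockout, led by Lyz2 and C1qa.

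**Figure D3:**
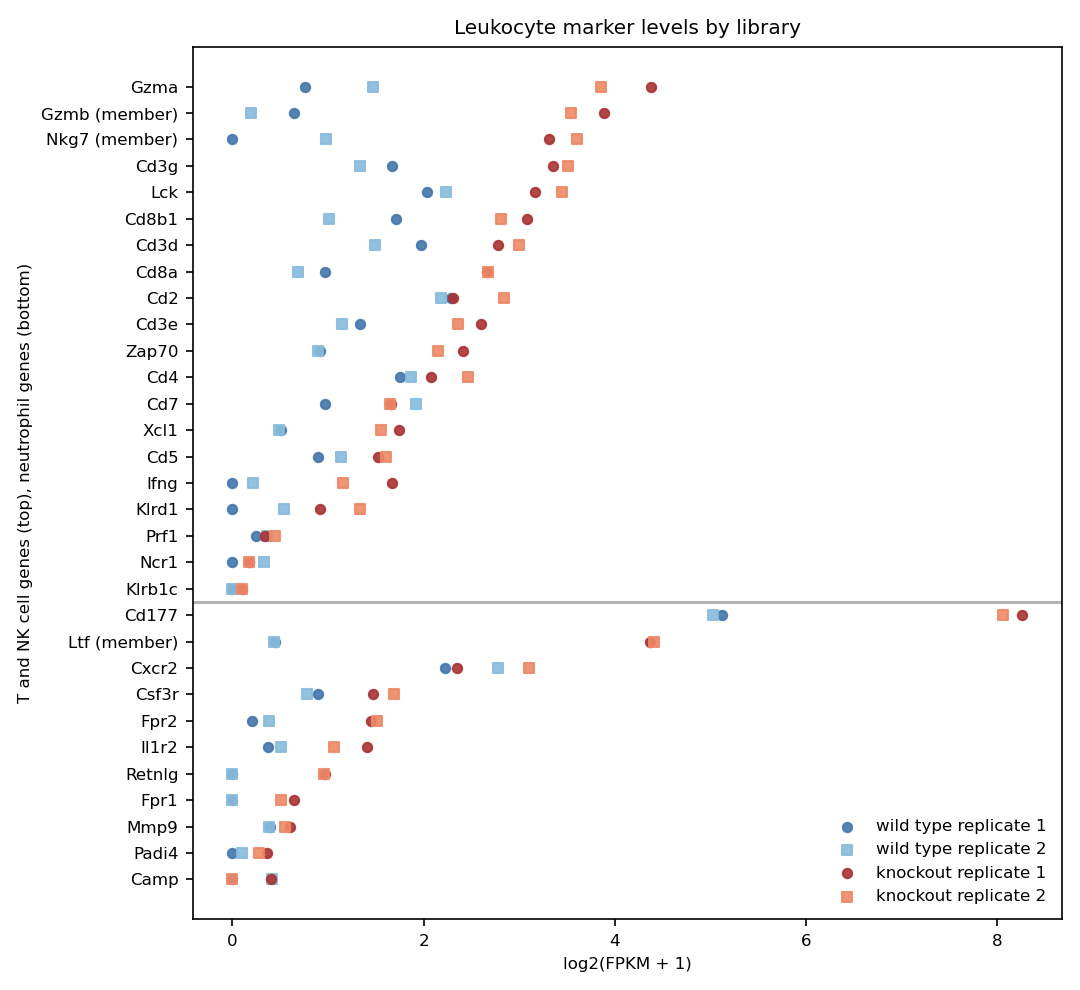
Level of each listed T and NK cell marker (upper block) and neutrophil marker other than Ly6g (lower block) as log2(FPKM + 1) on the x axis, with 1 point per library. The members Gzmb and Nkg7 sit among T and NK cell markers, and 9 of the 12 other tested ones were also called higher in knockout. Ltf, at 19.61 and 20.3 FPKM in knockout, sits below Cd177 and above Camp, Padi4 and Retnlg, which were under 1 FPKM.

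Regulators of chromatin, RNA and transcription contributed 3 members. Epop, which binds PRC2 and Elongin BC and is known from embryonic stem cells, had 0 and 4 counts in wild type against 52 and 41 in knockout (ratio 23.6, interval 8.92 to 88.5). Its level in knockout was 4.09 and 3.19 FPKM. Lin28b, an RNA-binding protein of fetal tissues that blocks let-7 maturation, had 1 and 0 counts against 26 and 22, or 0.88 and 0.74 FPKM in knockout. That was the lowest level among the members, and its ratio of 48.7 has an interval of 8.34 to 1970. Nfil3, a leucine zipper transcription factor of the clock and of innate lymphoid cells, had 3 and 5 counts against 46 and 41, and was the member with the most CG in its promoter window.

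Among 7 members that encode a hormone, gut enzymes or membrane proteins, Ghrl stood out by level. Ghrl encodes ghrelin, the appetite hormone made mainly by endocrine cells of the stomach. It had 1 and 0 counts in wild type against 59 and 64 in knockout, with 20.54 and 23.98 FPKM in the knockout libraries. The ratio of 125 was the highest among members with any wild-type count, and its interval of 22.0 to 4970 is wide because it rests on 1 wild-type count. Enteroendocrine markers did not all move alike. Of 13 tested, Ghrl included, 6 rose and 2 fell, beside 23.0% and 20.8% of all tested genes. The 6 include Ghrl, chosen by the thresholds, and Cck and Neurog3, tested only through their knockout counts. Sct, also among the 6, had 16 and 7 counts in wild type against 45 and 34. It was too low in wild-type replicate 2 to be tested without a knockout library. The summed level without Ghrl was 319 and 356 FPKM in wild type and 378 and 374 in knockout. Pyy, a peptide hormone of colonic endocrine cells and with Insl5 the most abundant of the list, rose by 0.59 on the log2 scale (adjusted p = 0.00114), and Insl5 had a log2 fold change of -0.29 (adjusted p = 0.125). Cck, the hormone cholecystokinin, went from 1 and 0 counts to 24 and 12 (log2 fold change 4.88), while Chga, a general endocrine granule protein, fell by 0.91 (adjusted p = 0.000321).

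The other 6 of that group had lower levels. Alpi, the intestinal alkaline phosphatase of the small bowel brush border, had 3 counts in both wild-type libraries and 22 and 36 in knockout (ratio 9.82, interval 4.25 to 27.8). Gcnt4, which branches O-linked glycans, had 1 and 2 counts against 46 and 40. Tm4sf5, a tetraspan membrane protein, had 5 counts in both wild-type libraries and 35 and 31 in knockout. Its ratio of 6.7 (3.43 to 14.6) was the lowest among the members. Sptssb, a small subunit of serine palmitoyltransferase that starts sphingolipid synthesis, had 0 and 1 counts against 28 and 20. Adh6a, an alcohol dehydrogenase, had 2 and 3 counts against 29 and 24. Rnf183, a RING finger ubiquitin ligase, had 1 and 4 counts against 20 and 22 and was the closest of the members to the threshold in knockout replicate 1. With Alpi counted, 5 of 9 tested genes typical of stomach, pancreas and small intestine rose and 2 fell, beside 23.0% and 20.8% of all tested genes. The 5 include Alpi and Mmp7, which met the count thresholds. They also include the transcription factor Pdx1 (0 counts in both wild-type libraries, 14 and 18 in knockout), tested only through its knockout counts. Of 15 such genes with equal transcripts in all files and at most 5 counts in wild type, 12 stayed there in knockout, among them Tff1, Tff2, Sis, Lct and Muc6. The 15 leave out Mmp7, a matrix metalloproteinase of Paneth cells whose transcript lists differ between files, with 4 and 1 counts against 123 and 124 (log2 fold change 5.58). Because Mmp7 met the count thresholds, its difference is also a description and carries no test.

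Genes known from muscle, nerve and signalling made up 6 members. Myot, which encodes myotilin of the muscle Z-disc, was listed by neither wild-type library and had 59 and 47 counts in knockout. Against a floor of 3 counts per library it was at least 17.9-fold higher. Of 12 listed skeletal muscle genes at most 5 counts in wild type, Myot was the only one to reach 20 counts in both knockout libraries. Tnni2, a troponin of fast muscle, came nearest with 2 counts in each wild-type library and 13 and 24 in knockout (log2 fold change 3.15). It too was tested only through its knockout counts. Ckm, the muscle creatine kinase and the most abundant of the list, fell by 1.18 (adjusted p = 0.00124), and Acta1, the next, had a log2 fold change of 0.27 (adjusted p = 0.517). The transcription factors Myod1 and Myog were not listed. Smooth muscle and fibroblast markers were lower in knockout, with 12 of 14 tested genes fallen and 0 risen, beside 20.8% and 23.0% of all tested genes. Their summed levels were 3310 and 3560 FPKM in wild type and 1470 and 1910 in knockout, led by Tagln and Actg2.

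The remaining members of that group were all under 5 FPKM in knockout. Kcnh3, a voltage-gated potassium channel of the brain, had 1 and 2 counts in wild type against 28 and 26 in knockout. Dync1i1, a cytoplasmic dynein intermediate chain of neurons, had 5 and 4 counts against 46 and 35. Pde11a, a phosphodiesterase of cyclic AMP and cyclic GMP, had 1 and 0 counts against 41 and 29. Of 13 tested neuronal genes, 0 rose and 1 fell, beside 23.0% and 20.8% of all tested genes. Atg9b, a membrane protein of autophagy, had 2 and 5 counts against 37 and 46. Fyb2, an adaptor related to the T cell protein FYB, had 5 counts in both wild-type libraries and 53 and 43 in knockout. RefSeq places Kcnh3 over part of Mcrs1, Atg9b over part of Nos3 and Pla2g2a over part of Pla2g5, and no source states that reads were counted by strand, so these pairs may share reads.

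The last 4 members are a pseudogene, a long RNA and genes without a symbol. The transcribed pseudogene 4930572O03Rik was absent from both wild-type files and had 21.05 and 33.92 counts in knockout, which is at least 9.31-fold higher. Gm1965, a long non-coding RNA in RefSeq, had 3 and 2 counts against 39 and 29. The genes with Entrez identifiers 18724 and 18729 matched no symbol in the RefSeq table. Entrez 18724 had 0 and 0.38 counts against 22.4 and 23.07, and Entrez 18729 had 0 in both wild-type libraries against 21.17 and 23.5. Each was at least 7.62-fold higher against the floor. Of all 35 members, 30 are protein-coding in RefSeq, 2 are transcribed pseudogenes and 1 is a long non-coding RNA. Their median transcript length of 2100 bases compares with 2830 bases for tested genes.

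The thresholds cut through a continuous range. Just inside, 7 members had a wild-type count of 5 (Ltf, Pla2g2a, Tm4sf5, Fyb2, Dync1i1, Nfil3 and Atg9b), and 11 had a lowest knockout count under 25. Just outside, 19 genes had a highest wild-type count above 5 and up to 8, and 3 had a lowest knockout count from 17 to under 20. Ces2f, a carboxylesterase, missed with 4.08 and 5.24 counts in wild type and had 119.08 and 122.74 in knockout. Serpina3f, a serine protease inhibitor, had 5.41 and 3.32 against 73.61 and 65.93. On the other side, Arg2, the mitochondrial arginase, had 1 and 4 against 19 and 18, Acox2 had 2 and 0 against 40 and 18, and 2810408I11Rik had 1 and 2 against 20 and 19. The list is therefore a slice set by round numbers, and the genes beside it had similar values. Between the knockout libraries the members' CPM had a median ratio of 1.16 (replicate 1 over replicate 2), from 0.617 for Alpi to 2.02 for H60c.

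Genes that crossed both thresholds were few among those near silent in wild type. Of 4064 listed genes with equal transcripts and at most 5 counts in both wild-type libraries, 3554 also had at most 5 counts in both knockout libraries, 460 lay in between and 50 (1.23%) reached 20 counts in both. Among 131 fixed developmental regulators, the textbook targets of Polycomb silencing, 94 were listed, and 42 had equal transcripts and were near silent in wild type. Of these 42, 37 stayed at or below 5 counts in knockout, and Cdkn2a, whose symbol was dropped from the list, was the only one to reach 20 counts in both knockout libraries (2.38%). Neurog3, the endocrine progenitor factor, had 5 and 0 counts in wild type and 21 and 14 in knockout. Pdx1, the transcription factor of pancreas and duodenum, had 0 in both against 14 and 18, and Bhlhe22, a neural basic helix-loop-helix factor, had 0 and 1 against 12 and 8. Of the 48 developmental regulators tested, 5 rose and 20 fell, beside 23.0% and 20.8% of all tested genes. The 5 include Cdkn2a, which met the thresholds, and Neurog3 and Pdx1, tested only through their knockout counts. Pax8, also among the 5, had 15 and 8 counts in wild type against 30 and 25. It was too low in wild-type replicate 2 to be tested without a knockout library. The median log2 fold change of the 48 was -0.55, and Hoxb13 and Hoxd13 led in level. All 15 germ line genes near silent in wild type, such as Dazl, stayed at or below 5 counts in every library. Among lists in which no gene reached 20 counts from near silence, 1 of 5 tested stratified epithelial genes rose and 2 fell, and of 11 PRC2 genes 1 rose and 2 fell. The stratified epithelial gene that rose was Lor, with 5 and 13 counts in wild type against 32 and 24. It too needed a knockout library to be tested.

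**Figure D4:**
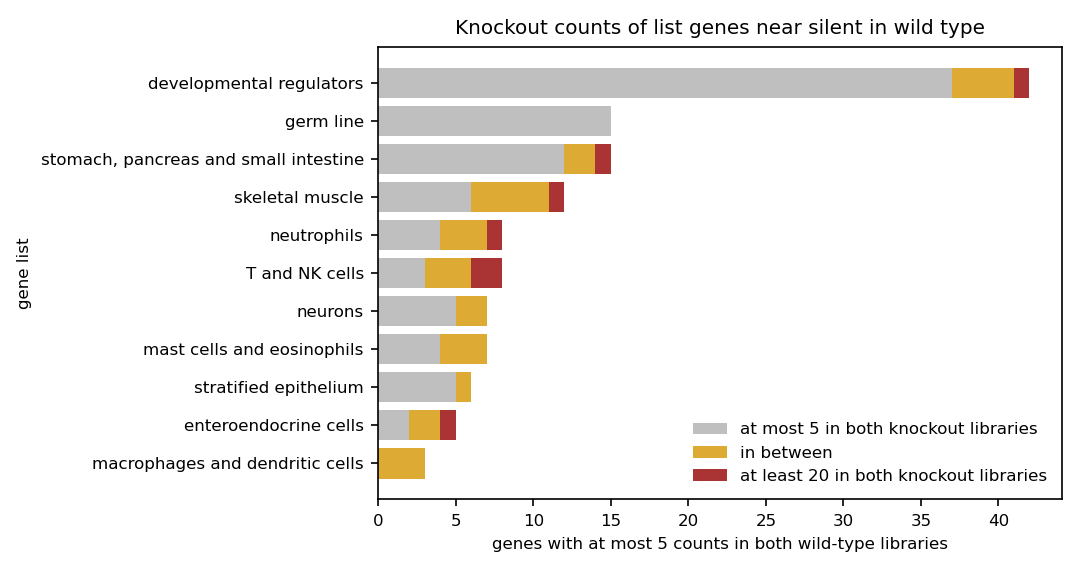
Number of listed genes with equal transcripts in all files and at most 5 counts in both wild-type libraries (x axis) for each fixed gene list (y axis), split by their counts in knockout. Of the 42 developmental regulators 37 stayed at or below 5 counts, and none of the lists has more than 2 genes that reached 20 counts in both knockout libraries.

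Genes next to the members on the chromosome were not used by the thresholds, though they were measured in the same libraries. For the 33 members with a place in the RefSeq gene order, the nearest listed gene on each side gave 66 neighbours, of which 39 were tested. In edgeR 15 of these rose (38.5%) and 3 fell (7.69%), beside 23.0% and 20.8% of all tested genes, and 21 were not called. Their median log2 fold change was 0.42. No member had another gene that met the thresholds as its direct neighbour. Several neighbours are relatives of the member beside them. Phf11a and Phf11d, on either side of Phf11b, rose by 2.68 ± 0.51 and 1.89 ± 0.32 on the log2 scale (standard error, adjusted p = 0.00277 and 0.0015), and Phf11d went from 1.01 and 2.23 FPKM to 5.92 and 5.5. Gm4841, beside Gm4951, rose from 1.84 and 1.86 FPKM to 9.3 and 10.56 (2.52 ± 0.2, adjusted p = 1.62e-05). Counts of Phf11a, Phf11d and Gm4841 were not all whole. Reads could be shared with near copies, possibly the member beside them, so these values are uncertain and may not be independent of the thresholds. Pla2g5, a secreted phospholipase beside Pla2g2a that overlaps it, rose by 1.82 ± 0.19 (adjusted p = 8.3e-05). Pla2g2e, another on the other side, had 3 and 1 counts in wild type against 13 and 19 in knockout (2.94 ± 0.63). Both Pla2g2e and Phf11a, with 9.46 and 2.19 counts in wild type against 34.18 and 36.93, were tested only through their knockout counts. They are among the 15 neighbours that rose and could not have come out as falls.

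Not every relative followed. Adh1, an alcohol dehydrogenase beside Adh6a, fell from 915.12 and 895.07 FPKM to 297.93 and 281.14 (log2 fold change -1.54 ± 0.08, adjusted p = 1.11e-06). Saa4, next to Saa3, had a log2 fold change of 1.13 ± 0.45 and did not pass (adjusted p = 0.069). Of 9 tested neighbours that share a symbol stem with their member, 5 rose and 1 fell. The 5 include Phf11a and Pla2g2e, tested only through their knockout counts. Leaving out these and neighbours that overlap their member, 9 of 28 rose (32.1%) and 2 fell. These include Gm4841, whose symbol names no family, and without it 8 of 27 rose (29.6%). Among the others, Dcp2, an mRNA decapping enzyme beside Myot, rose by 1.32 ± 0.13 (adjusted p = 6.46e-05), and Spats2, beside Kcnh3, by 1.54 ± 0.25 (adjusted p = 0.00113). Mcrs1, which overlaps Kcnh3 and so may share its reads, rose by 0.75 ± 0.11 (adjusted p = 0.000518). Atp12a, a proton pump beside Gzmb, Sec13, a coat protein of secretory vesicles beside Ghrl, and Slc25a13, a mitochondrial carrier beside Dync1i1, rose by 0.63, 0.61 and 0.75 (adjusted p = 0.000294, 0.000743 and 0.0018). Mllt6, beside Epop, fell by 0.57 (adjusted p = 0.00685), and Ror2, beside Nfil3, by 0.66 (adjusted p = 0.0486). Both neighbours of Lin28b, Bves and Hace1, had negative fold changes that did not pass (adjusted p = 0.0908 and 0.266).

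**Figure D5:**
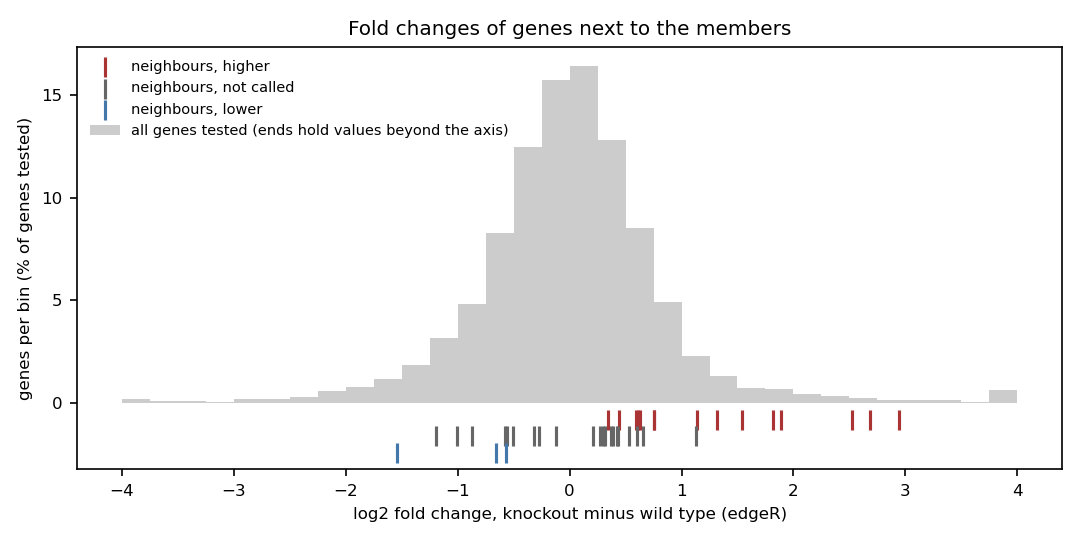
Log2 fold change, knockout minus wild type (x axis), for the 39 tested neighbours of members as lines below the axis, by call, over the distribution of all 13608 tested genes as a percentage per bin (y axis). The neighbours' median is 0.42, 15 were higher and 3 were lower.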

How the data were processed

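The members and gene lists were chosen with earlier results of these data known. For each library the authors deposited expected counts, FPKM values and gene lengths (unit other), named so per the file headers. Per the submitters' processing notes Bowtie2 and BWA were used, with no role or version, and the build is hg19, which is not a mouse build. What produced the counts is not stated there. Of 18872 gene identifiers 99.72% matched the RefSeq table of GRCm38.p6, which gave symbols, gene order and promoter windows.

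Genes not listed were taken as 0. A gene with at most 5 counts in both wild-type libraries could be tested only through its knockout counts. The filter asked for enough counts in 2 libraries. A gene that fell short in any wild-type library therefore also needed a knockout library to be tested. Rounded expected counts went into the quasi-likelihood test of edgeR 4.0.16 (R 4.3.3) with filterByExpr and TMM, 2 libraries against 2, two-sided, called at a Benjamini-Hochberg adjusted p under 0.05, after the code had been tested on simulated data. limma 3.58.1 on log2(FPKM + 1) and log2(FPKM + 0.1) and DESeq2 1.42.0 were alternatives. Every member is named, grouped by known role. Genes just outside the thresholds and neighbours were named by distance from the threshold and by p, and of each marker list the 2 most abundant genes over all 4 libraries. Other list genes, just-outside genes and neighbours named beyond this were chosen after their values were seen.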

Additional observations from a re-analysis of the deposited data

How the results depend on the processing

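The number of members followed the thresholds. It was 35 as given, 12 with at most 2 wild-type counts, 77 with at most 10, 91 with at least 10 knockout counts and 13 with at least 40. Leaving out a library in turn gave 40 to 61, the lowest without knockout replicate 1 and the highest without wild-type replicate 2. The reverse thresholds gave 24 genes, and 6, 75, 81 and 8 under the same 4 changes, with 32 to 46 when a library was left out (46 without knockout replicate 1 and 45 without knockout replicate 2). Before symbols were dropped the 50 genes became 17, 98, 110 and 20. Counts scaled to effective library size gave 30, losing Ltf, Pla2g2a, Dync1i1, Tm4sf5 and Fyb2. A rule on FPKM (at most 0.5 and at least 2) found 25 genes, 15 of them shared with the 35 members, and lost 20, among them Saa3, Pla2g2a, Gzmb and Nkg7. Neighbours higher in knockout were 15, but 24 with 2 listed genes taken on each side and 9 without shared symbol stems or overlaps, the latter an alternative chosen after seeing the data. CpG-rich members fell from 2 to 1 at an observed to expected ratio of at least 0.75 (51.8% of tested genes), and also to 1 when every window of a gene had to pass (60.1%), again chosen after seeing the data.

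Over all genes, edgeR called 3126 higher and 2824 lower, against 2555 and 3465 when scaled by library totals alone and 2376 and 2003 in DESeq2. Libraries of the same replicate number deviated together (correlation 0.732 over 9695 genes), but there are only 2 pairs and the labels tie the numbers to nothing, so they were not treated as paired. With a replicate block 3855 genes were higher, 3548 lower and 18 neighbours higher. Depth limits levels at or below 5 counts per library, which could not be ranked, and transcript lists that differ between replicate files limit which genes could be compared.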

Other observations

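The thresholds were also met by 4 genes that were left out because their transcript lists differ between the replicate 1 and replicate 2 files. Mmp7, the matrilysin that processes antimicrobial peptides in Paneth cells, had 4 and 1 counts in wild type against 123 and 124 in knockout, with 26.55 and 22.5 FPKM in the knockout libraries. H19, the imprinted long RNA of fetal growth, had 5 and 0 counts against 220 and 119, or 17.71 and 9.52 FPKM in knockout. Rasgef1a, an exchange factor for Ras family GTPases, had 4 and 0 against 26 and 55, and 3930402G23Rik had 1 and 2 against 33 and 29. The knockout libraries differed from each other most for H19 and Rasgef1a, in opposite directions.

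Some genes with more than 5 counts in a wild-type library were also high in knockout. Tnfrsf8, the lymphocyte activation receptor CD30, had 5 and 7 counts in wild type against 149 and 201 in knockout. Sfmbt2, a Polycomb group protein encoded at an imprinted locus, had 8 and 1 against 46 and 44. Cxcr6, a chemokine receptor of tissue lymphocytes, had 4 and 7 against 31 and 43. These 3 genes were picked after their values were seen.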
